A study of Mus musculus with 8 samples.

Results

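Translation factors are the proteins that work with the ribosome to start, extend and end a polypeptide chain. The genes described here were chosen by symbol alone, as the eukaryotic initiation factors (Eif1 to Eif6), elongation factors (Eef1 and Eef2) and release factors (Etf1, Gspt1 and Gspt2) found in both deposited tables, without Eif4enif1 and Eif4e1b. There were 48 such genes among the 8537 genes in both tables. A further 2 matching symbols were in the HA table only and 9 in the input table only.

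Translation factor mRNA was measured by RNA-Seq in mature (metaphase II, MII) mouse oocytes from young and old females, to ask whether ribosome loading changes with maternal age. All females were C57BL/6 mice of the genotype RiboTagF/F;Zp3-Cre, in which the Zp3 promoter drives Cre in growing oocytes and Cre places an HA tag on a ribosomal protein of those cells. Young females were 1 month old and old females were retired breeders of 12 to 15 months. Follicle growth was stimulated in both ages with PMSG (5 IU), ovulation was triggered after 48 h with hCG (10 IU), and ovulated oocytes were taken 13 h later. There were 2 pools of 200 oocytes per age, each pool a mixture of the oocytes of many animals. Each pool gave an input library (10% of the lysate, total mRNA) and an HA library (mRNA bound to tagged ribosomes, recovered with an antibody to HA).

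In an MII oocyte the genome is silent, so protein synthesis draws on mRNA stored during growth. Initiation begins when eIF2 brings the initiator tRNA to the small ribosomal subunit, eIF3 holds the complex together, and eIF4F (the cap-binding protein eIF4E, the scaffold eIF4G and the helicase eIF4A) brings in the mRNA. eIF2B recharges eIF2 with GTP and is blocked when kinases phosphorylate eIF2. eEF1 then delivers aminoacyl-tRNA, eEF2 moves the ribosome along, and eRF1 with eRF3 releases the finished chain.

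Levels are given in CPM (read counts scaled to library size, TMM-normalised by the authors separately for HA and input). Libraries held 37817382 to 59688578 reads on HA genes and 38276453 to 60052814 on input genes, so 1 read was worth 0.0129 to 0.037 CPM. The HA values of the 2 old libraries summed to 1115490 and 1397710 CPM, against 771444 and 831404 CPM in the young libraries. All 10 oocyte markers checked were in both tables (summed HA level 11518 to 17831 CPM), while 0 of 8 blood markers were in either table. Of 13 cumulus and granulosa markers, 3 were in the HA table (88.7 to 202 CPM summed) and 8 in the input table (146 to 281 CPM). Epcam was the 1 of 4 oviduct markers in the input table, at 57.6 CPM in old pool 1 and 0.0581 to 3.29 CPM in the other libraries. Their part in the results below was not tested. In such pools, fewer mRNA molecules per oocyte and fewer oocytes that carry the mRNA cannot be told apart.

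The 3′ UTR of an oocyte mRNA often carries cytoplasmic polyadenylation elements (CPEs), short U-rich motifs read by the protein CPEB1. The windows below show such an element in 6 of the translation factor mRNAs. Each is the last CPE (TTTTAT or TTTTAAT, mRNA strand only, capitals) of the longest annotated 3′ UTR, written 5′ to 3′ as DNA on the gene's strand, from GENCODE M21 transcripts with GRCm38 positions.
Eef1a1 (chr9:78478507-78478536, minus strand): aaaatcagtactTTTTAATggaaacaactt
Eif6 (chr2:155825230-155825259, minus strand): aaaacattttttTTTTAATcgttaagcatg
Eif1ax (chrX:159389887-159389916, plus strand): attcagtggatgTTTTATgctgcacaaata
Eif4ebp2 (chr10:61431802-61431831, minus strand): tatctgtactgtTTTTAATtaaactccaaa
Eif2b1 (chr5:124570523-124570552, minus strand): agttcttcctggTTTTAATaaaccaccgcc
Eif4g2 (chr7:111068669-111068698, minus strand): attgggatttctTTTTAATgacttacttat

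In Eef1a1, Eif6 and Eif1ax this element lay 76, 82 and 30 bases from the annotated end of the transcript with the longest 3′ UTR. Eif3j2 was the only other translation factor with a CPE in the last 100 bases. The Eif6 transcript ends inside its gene, which runs on to chr2:155819832, so its element is not near the end of the gene. In Eif2b1, Eif4g2 and Eif4ebp2 the last element lay 328, 937 and 3329 bases from the end. A 3′ UTR was annotated for 47 of the 48 genes, and 25 of these (53.2%) held at least 1 CPE, against 70.7% of the 7924 genes with a 3′ UTR in both tables. A CPE within the last 100 bases was found in 4 translation factors (8.51%) and in 21.5% of all those genes. The 3′ UTRs of the translation factors were also shorter, with a median of 977 bases against 1332 bases. No test was made of these shares. Eif2a, Eif2d, Eif3i, Eef1d, Eif2b2 and Eif2b4, whose age differences are described below, held no CPE in the longest annotated 3′ UTR. A 5′ terminal run of C and 4 pyrimidines, the mark of TOP mRNAs, stood at the RefSeq start (GRCm38.p6) of 2 of 37 matched translation factors, Eif2s3x and Eif3f, and of 2.99% of matched genes.

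The 48 mRNAs spanned a wide range of levels. Mean input levels ran from 2.98 CPM for Eif3f to 1223 CPM for Eif5b, with a median of 51.3 CPM. Mean HA levels ran from 2.13 CPM for Eif3k and Eef1d to 824 CPM for Eif4g2, with a median of 36.9 CPM. Above 100 CPM in HA stood 15 of the 48 (31.2%), against 21.4% of all HA genes. Per kilobase of exon, the highest HA levels were those of Eif2b1 at 253, Eif4g2 at 81.0, Eif2ak1 at 73.4, Eif4a1 at 72.9, Eif5b at 69.2 and Eif3i at 68.8 CPM per kb, whereas the elongation factors Eef1a1 and Eef2 stood at 24.6 and 37.0 CPM per kb.

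**Figure D1:**
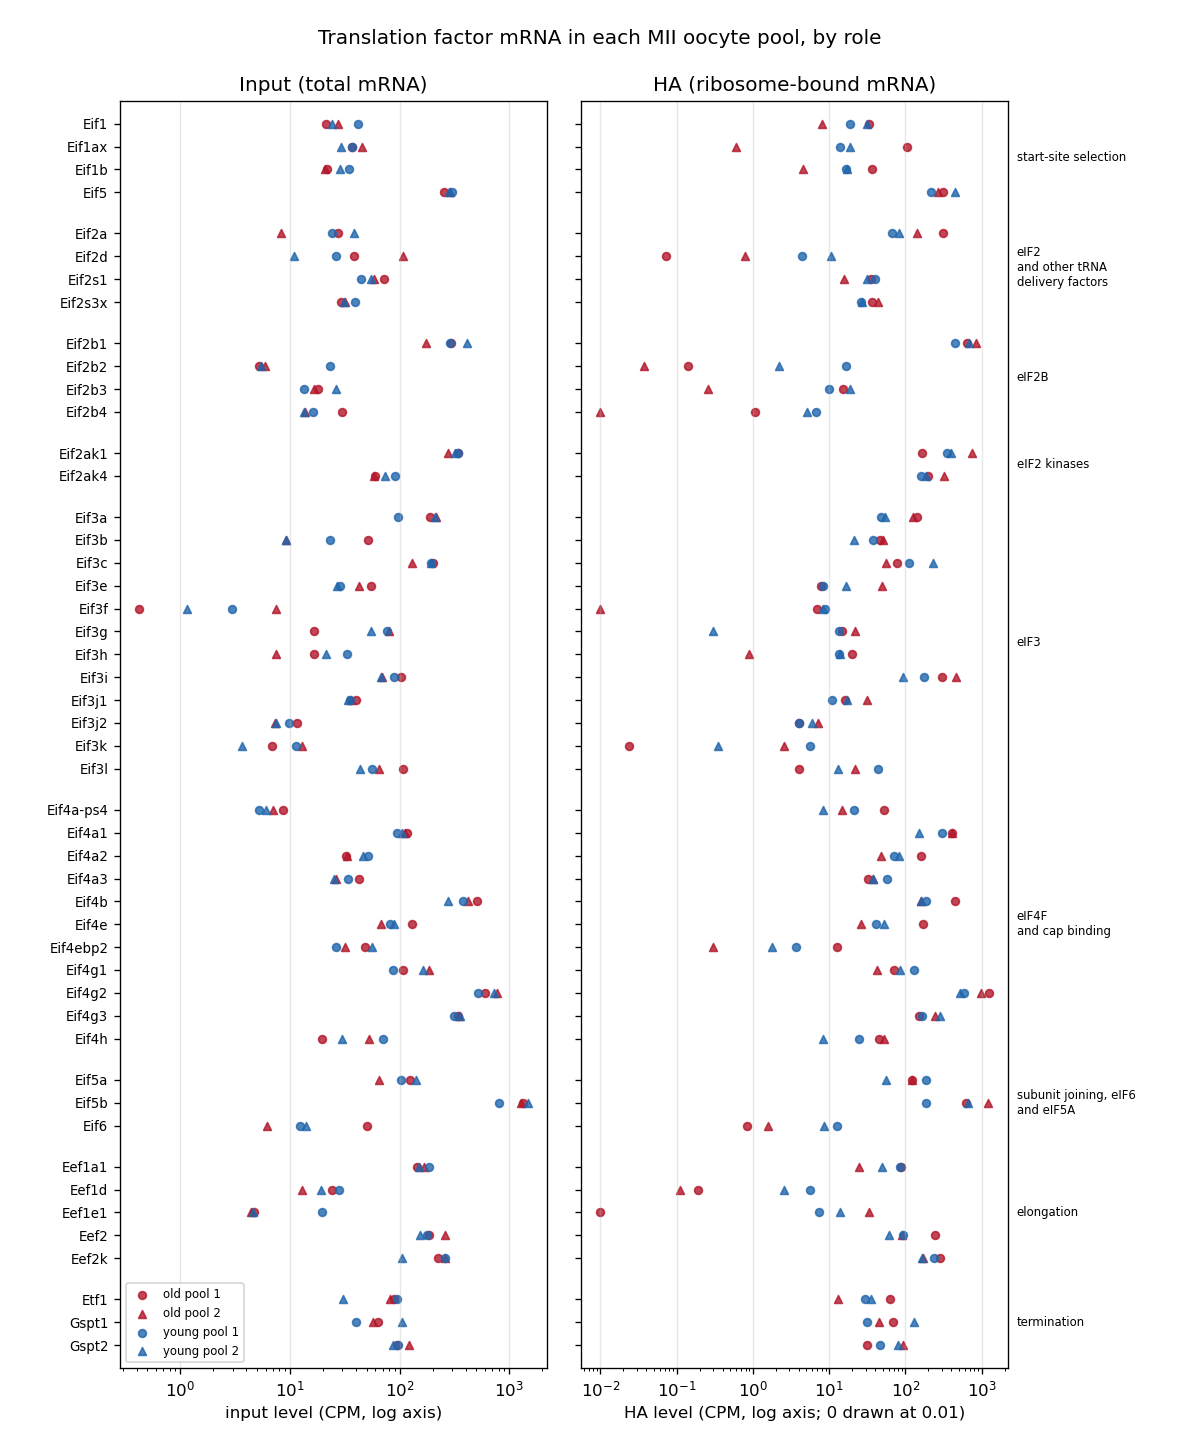
Level of each of the 48 translation factor mRNAs in every pool, input on the left and HA on the right, in CPM on log axes, with values of 0 drawn at 0.01 CPM. Colours give age, symbols give the pool and genes are grouped by role. Eif5b is the highest in input (802 to 1469 CPM) and Eif4g2 and Eif5b are the highest in HA, while the 2 old HA values of Eif2d, Eif2b2 and Eef1d all lie under 1 CPM.

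Old and young oocytes were first compared in total mRNA, where the translation factors differed little. By limma on log2(CPM + 1), adjusted by the Benjamini-Hochberg method across the 10530 input genes, 0 of 48 passed an adjusted p of 0.05 (0.0095% of all genes passed). At an unadjusted p under 0.05, 1 of 48 was higher in old oocytes (2.71% of all genes) and 0 were lower (3.48% of all genes). Both old pools lay above both young pools for 10 of 48 (16.4% of all genes) and below them for 4 (18.9% of all genes). The median log2 difference of the 48 was 0.12, against -0.03 over all input genes. Tests on recovered reads by edgeR (quasi-likelihood and likelihood ratio) and DESeq2 also called 0 of the 48 in input.

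In HA, 0 of 48 passed an adjusted p of 0.05 by the same test over 8898 genes (0% of all genes passed). At an unadjusted p under 0.05, 3 of 48 were higher in old oocytes, namely Eif2a, Eif3i and Eif4g2 (4.28% of all genes), and 4 were lower, namely Eef1d, Eif2b2, Eif2b4 and Eif2d (10.5% of all genes). The old pools were both above the young pools for 10 of 48 (17.2% of all genes) and both below for 9 (24.7% of all genes). As shares of the 48, the 4 counts were 6.25%, 8.33%, 20.8% and 18.8%. The median log2 difference of the 48 was -0.11, against -0.14 over all HA genes. Rescaling the libraries to the same sum moved the median of all HA genes by -0.54 (input -0.17, TE -0.37) and that of the 48 to -0.75, so directions are best read against the median gene, above which lay 25 of 48 before and 23 after rescaling. On recovered reads, DESeq2 called 1 of the 48 (Eif2b2, adjusted p = 0.0267), where it called 508 of all 8898 genes. The likelihood ratio test of edgeR called 0 of the 48 and 295 of all genes, and its quasi-likelihood test called 0 of either.

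The translational efficiency (TE) of a pool was HA over input, tested as log2(HA CPM + 1) minus log2(input CPM + 1). HA and input were normalised separately, so HA was not tested against input, a ratio of 1 has no fixed meaning, and ratios are set between genes and pools only. In TE, 0 of 48 passed an adjusted p of 0.05 over 8537 genes (0% of all genes passed). At an unadjusted p under 0.05, Eif2a was higher (1 of 48, 2.98% of all genes) and Eif2d was lower in old oocytes (1 of 48, 3.51% of all genes). Both old pools lay above both young pools for 11 of 48 (17.2% of all genes) and below them for 9 (20.4% of all genes). On the interaction of age and fraction, Eif2d passed in edgeR's likelihood ratio test (adjusted p = 0.0499), which called 91 of the 8537 genes. It also passed in DESeq2 (adjusted p = 0.00143), which called 339 of the 8537. The quasi-likelihood test of edgeR called 0 of the 48.

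**Figure D2:**
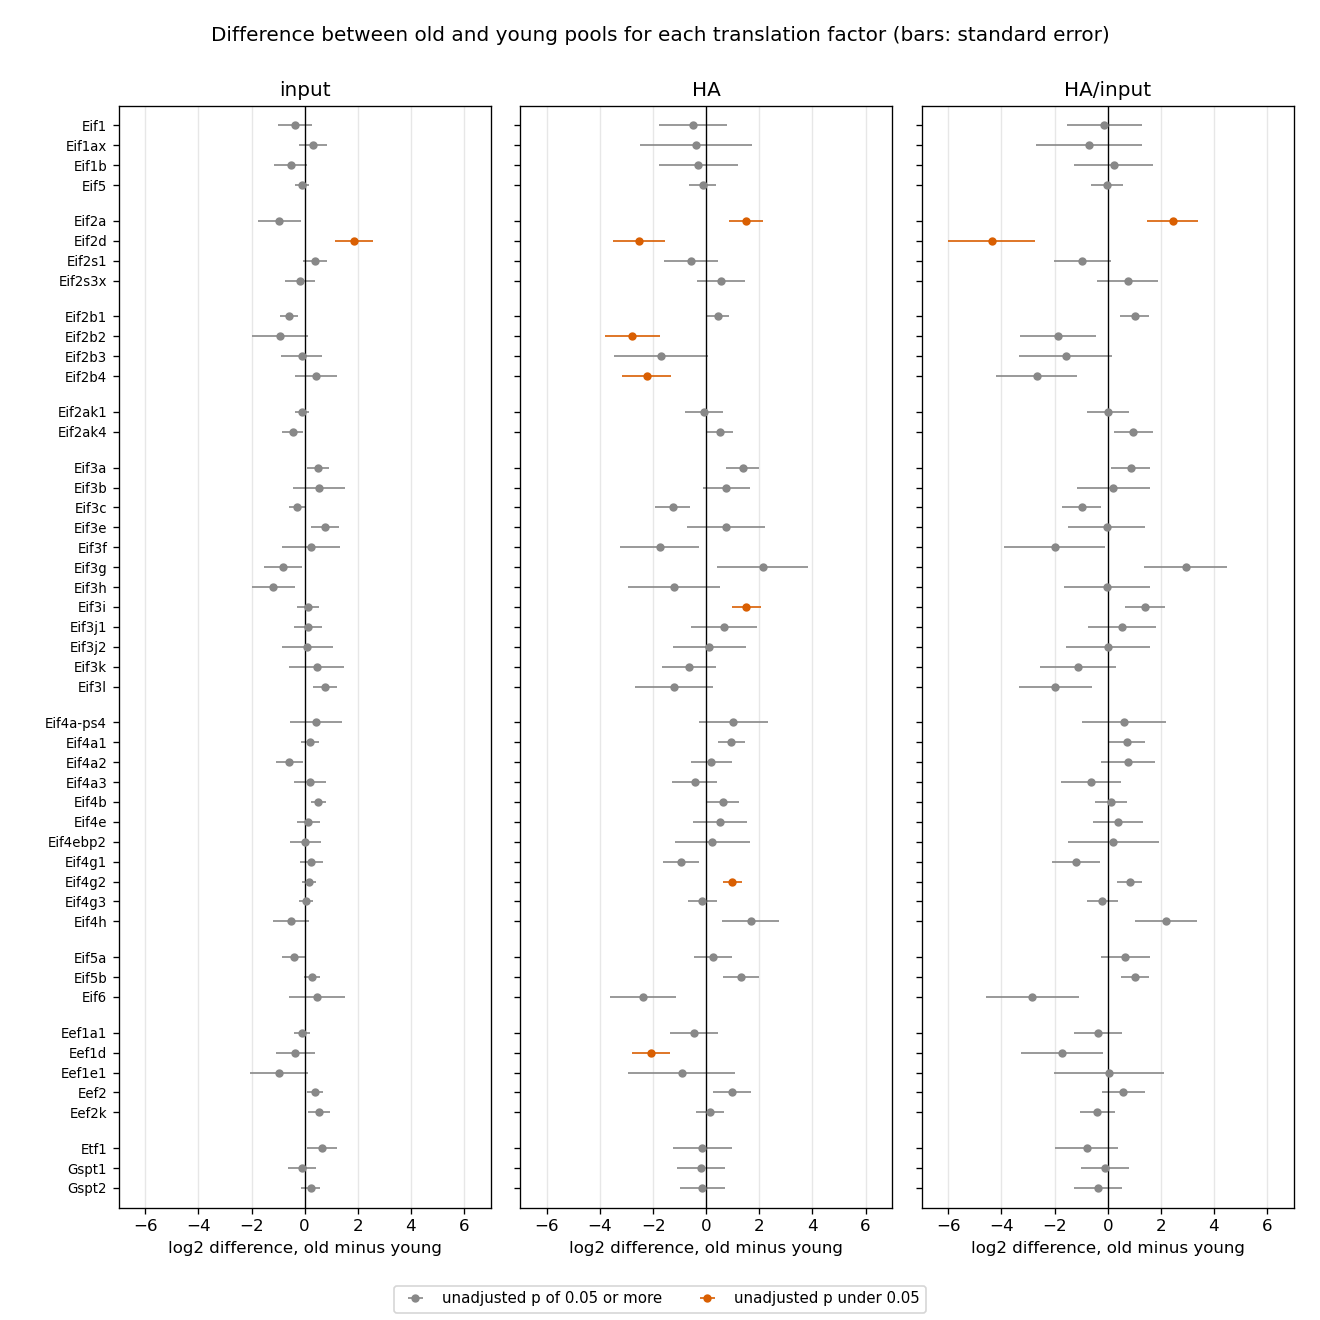
Difference between old and young pools, in log2 units, for each translation factor in input, HA and HA/input, with bars of 1 standard error (limma, 2 pools per age). Orange marks an unadjusted p under 0.05 and none passed after adjustment. In input 1 gene is orange, in HA 7, and in HA/input Eif2a (2.45) and Eif2d (-4.36) lie on opposite sides of 0.

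The factors that bring the initiator tRNA to the ribosome held the widest contrast. Eif2s1 and Eif2s3x encode the alpha and gamma subunits of eIF2, while eIF2A (Eif2a) and eIF2D (Eif2d) can deliver tRNA without it. Eif2a lay at 314 and 141 CPM in the old HA libraries and at 66.1 and 82.3 CPM in the young. Its input levels were 27.5 and 8.35 CPM in old pools and 24 and 38.6 CPM in young pools. The HA values of the 2 ages did not overlap, whereas the input values did.

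The log2 difference of Eif2a, old minus young, was 1.5 ± 0.63 (SE, n = 2 pools per age) in HA with an adjusted p of 0.338, and 2.45 ± 0.95 in TE with an adjusted p of 0.739 (limma). Plain HA/input ratios were 11.4 and 16.9 in old pools and 2.75 and 2.13 in young pools, the highest mean TE of the 48. Eif2a (chromosome 3, 58525821 to 58557501, plus strand) overlaps Serp1 on the other strand over 72 bases at its 5′ end, and the authors counted reads without strand.

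Eif2d showed the opposite order in the 2 fractions. Its input levels were 38.2 and 106 CPM in old pools and 26.3 and 10.9 CPM in young pools, with the old values both above the young. Its HA levels were 0.0713 and 0.776 CPM in old pools (3 and 21 reads) and 4.41 and 10.5 CPM in young pools (341 and 596 reads), with both old values below.

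The log2 difference of Eif2d was 1.85 ± 0.72 in input (adjusted p = 0.778), -2.52 ± 0.98 in HA (adjusted p = 0.318) and -4.36 ± 1.64 in TE (adjusted p = 0.739). HA/input ratios of Eif2d were 0.167 and 0.963 in young pools, against 0.00187 and 0.00729 in old pools. Of the length of Eif2d (chromosome 1, 131153181 to 131187658, plus strand), 32.6% is shared with Rassf5 on the other strand, and reads from the shared stretch cannot be told apart. The eIF2 subunits varied less between pools. Eif2s1 lay at 35.4, 15.6, 40.2 and 31.2 CPM in HA (old 1, old 2, young 1, young 2) and Eif2s3x at 36.0, 44.0, 26.3 and 27.2 CPM.

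Among the subunits of eIF2B, the exchange factor of eIF2, levels were very unequal. Eif2b1, the alpha subunit, stood at 645 and 842 CPM in old HA libraries and at 441 and 679 CPM in young ones, with input levels of 294, 176, 286 and 410 CPM. The other measured subunits, Eif2b2, Eif2b3 and Eif2b4, had mean HA levels of 4.76, 11 and 3.20 CPM. Per kilobase of exon, HA was 253 CPM per kb for Eif2b1 and 1.23 to 2.52 CPM per kb for the other 3. Input showed the same order, at 113 against 2.85 to 7.02 CPM per kb.

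Eif2b2, the beta subunit, was at 0.143 and 0.037 CPM in old HA libraries (6 and 1 reads) and at 16.7 and 2.17 CPM in young ones (1290 and 123 reads). Eif2b4, the delta subunit, was at 1.07 and 0 CPM in old libraries (45 and 0 reads) and at 6.63 and 5.11 CPM in young ones. For both genes old and young HA values did not overlap.

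The log2 HA difference was -2.78 ± 1.05 for Eif2b2 (adjusted p = 0.313) and -2.25 ± 0.92 for Eif2b4 (adjusted p = 0.335), by limma. Eif2b3, the gamma subunit, had 15.1 and 0.259 CPM in old HA libraries, with the first inside the young range of 9.85 to 18.8 CPM. In input, the log2 difference of Eif2b1 was -0.59 ± 0.34 and those of the other 3 lay between -0.92 and 0.43. Eif2b4 shares 204 bases of its 5′ end with Snx17 on the other strand. Eif2b5, the catalytic epsilon subunit, was in the input table only.

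Of the 2 measured eIF2 kinases, Eif2ak4 had an HA/input above that of the median gene in all 4 pools and Eif2ak1 did not. Eif2ak4 (GCN2, which senses uncharged tRNA) lay at 195 and 317 CPM in old HA libraries and at 162 and 187 CPM in young ones, without overlap. Its input levels were 59.7 and 58.8 CPM in old pools and 90.5 and 73.0 CPM in young pools, again without overlap but in the other order. Its HA/input ratio exceeded 1.7 in each of the 4 pools (3.27, 5.39, 1.79 and 2.56).

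The TE difference of Eif2ak4 was 0.96 ± 0.73 (adjusted p = 0.802), and its HA difference of 0.51 turned to -0.13 when libraries were rescaled to the same sum. Eif2ak1 (HRI, the heme-regulated kinase) was abundant in HA but its old values of 165 and 748 CPM enclosed the young values of 353 and 399 CPM.

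For start-site selection, Eif1, Eif1b, Eif1ax and Eif5 were measured, which together hold the ribosome at the correct start codon and trigger GTP hydrolysis. Eif5 was the most abundant of the 4, at 306 and 266 CPM in old HA libraries and 217 and 450 CPM in young ones, with input levels of 255 to 301 CPM. Eif1 had HA levels of 33.7, 8.09, 18.5 and 31.4 CPM. The old pools disagreed most for Eif1ax, at 105 and 0.591 CPM in HA, although its input levels were close at 37.1 and 45.0 CPM. The young HA values of Eif1ax, 13.8 and 18.9 CPM, lay between these. Log2 HA differences of the 4 were -0.50 to -0.13, each within its standard error of 0 (0.51 to 2.11).

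eIF3 was represented by 12 genes, and they did not move as one. In HA, 7 of 12 had a higher mean in old oocytes (45.9% of all genes) and 5 a lower one. Their log2 differences ran from -1.75 (Eif3f) to 2.12 (Eif3g), with a median of 0.39. In input, 9 of 12 were higher (48.6% of all genes), with a median of 0.19, but 6 of 12 in each fraction after rescaling to the same sum. Only Eif3i of the 12 had an unadjusted p under 0.05 in HA.

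Eif3i, a WD40-repeat subunit, had HA levels of 297 and 454 CPM in old pools and 173 and 94.2 CPM in young pools. Input levels were 102, 68.8, 89.7 and 67.0 CPM, with overlap. The log2 difference was 1.51 ± 0.54 in HA (adjusted p = 0.304) and 1.4 ± 0.74 in TE (adjusted p = 0.739). HA/input was above 1.4 in every pool.

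Eif3a, the largest subunit, had HA levels of 143 and 126 CPM in old pools and 48.2 and 54.4 CPM in young pools, again without overlap. Its log2 HA difference was 1.37 ± 0.62 (adjusted p = 0.369), and its input levels, 190 and 217 against 96.8 and 210 CPM, overlapped. Eif3e, in contrast, had 7.89 and 49.4 CPM in old HA libraries and 8.28 and 16.4 CPM in young ones. Eif3l was the subunit with the smallest p in input, at 106 and 65.3 CPM in old pools and 55.5 and 43.3 CPM in young pools (0.75 ± 0.45, adjusted p = 0.812). The other members of the complex, Eif3b, Eif3c, Eif3f, Eif3g, Eif3h, Eif3j1, Eif3j2 and Eif3k, had mean HA levels of 2.13 to 119 CPM. Eif3j1 and Eif3j2 are paralogs, so the split of reads between them is uncertain.

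The cap-binding group of 11 genes was set by symbol and also holds Eif4a3 and the pseudogene Eif4a-ps4. In HA, 8 had a higher mean in old oocytes and 3 a lower one, with a median log2 difference of 0.51. The same split of 8 and 3 was seen in TE. Of all genes, 45.9% were higher in HA and 47.1% in TE. Under rescaling to the same sum, 4 were higher and 7 lower in HA, and 6 were higher and 5 lower in TE. The single member with an unadjusted p under 0.05 was Eif4g2.

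Eif4g2 (DAP5), an eIF4G relative that lacks the eIF4E site and serves initiation independent of eIF4E, was the most abundant of the 48 in HA. It lay at 1231 and 965 CPM in old HA libraries and 584 and 516 CPM in young ones, while its input levels of 595, 782, 516 and 729 CPM overlapped. The log2 HA difference was 0.99 ± 0.37 (adjusted p = 0.313), and 0.83 ± 0.47 in TE (adjusted p = 0.739). The classical scaffold Eif4g1 showed the other order, with 70.2 and 42.4 CPM in old HA libraries and 131 and 86.0 CPM in young ones (-0.94 ± 0.69, adjusted p = 0.654). Eif4g3 lay at 152, 248, 163 and 286 CPM, with overlap.

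The helicase Eif4a1 had HA levels of 410 and 404 CPM in old pools and 301 and 149 CPM in young pools, with input levels of 93.9 to 116 CPM. Its HA difference of 0.94 ± 0.51 did not pass (adjusted p = 0.474). Eif4a-ps4, an Eif4a1-like pseudogene, had HA/input ratios of 6.07, 2.12, 4.09 and 1.36 against 3.53, 3.59, 3.21 and 1.42 for Eif4a1, and the split of reads between the gene and its copy is uncertain. Eif4a2 and Eif4a3 had mean HA levels of 90.3 and 41.2 CPM.

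The cap-binding protein Eif4e lay at 171 and 26.2 CPM in old HA libraries and at 41.4 and 52.9 CPM in young ones, so the old values enclosed the young. Eif4ebp2, which encodes a repressor that holds eIF4E away from eIF4G, was poorly loaded. Its input levels were 48.8, 31.5, 26.5 and 55.9 CPM, and its HA levels 12.7, 0.296, 3.66 and 1.76 CPM. HA/input was at most 0.261 in all 4 pools, and neither fraction separated the ages.

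Eif4b, a cofactor of the helicase, had input levels of 504 and 420 CPM in old pools and 377 and 275 CPM in young pools (0.51 ± 0.28, adjusted p = 0.79). Eif4h, a related cofactor singled out after its values were seen, had HA levels of 45.4 and 52.6 CPM in old pools and 24.9 and 8.39 CPM in young pools. It was the only one of the 48 whose log2 HA/input lay above that of the pool's median gene in both old pools and below it in both young pools, a pattern held by 4.6% of all genes. The TE difference was 2.19 ± 1.17 with an adjusted p of 0.739.

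Eif5b joins the ribosomal subunits, eIF6 keeps free large subunits apart, and eIF5A helps the ribosome through difficult peptide bonds. Eif5b was the most abundant factor in input, at 1345, 1277, 802 and 1469 CPM, and its HA levels were 619 and 1225 CPM in old pools and 187 and 668 CPM in young pools. HA/input of Eif5b was 0.46 and 0.959 in old pools and 0.233 and 0.455 in young pools, with the lower old value just above the higher young value. The TE difference was 1.03 ± 0.52 (adjusted p = 0.739, limma). Eif6 had 0.832 and 1.55 CPM in old HA libraries and 12.5 and 8.44 CPM in young ones, without overlap (-2.39 ± 1.24, adjusted p = 0.453). Input of Eif6 was uneven among old pools, at 50.9 and 6.16 CPM. Eif5a lay at 124, 121, 188 and 55.6 CPM in HA, with overlap.

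The elongation group, set by symbol and not by known function, held Eef1a1, Eef1d, Eef1e1, Eef2 and the eEF2 kinase Eef2k. Eef1a1, which carries aminoacyl-tRNA to the ribosome, had input levels of 143 to 184 CPM and HA levels of 87.2, 24.5, 83.9 and 49.2 CPM. Its HA/input lay below that of the median gene in every pool. Eef2, the translocase, had HA levels of 247, 90.6, 94.2 and 60.8 CPM and input levels of 187, 258, 179 and 155 CPM. Eef2k, which inhibits eEF2 by phosphorylation, lay at 288, 168, 239 and 163 CPM in HA and at 226, 259, 261 and 105 CPM in input.

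Eef1d, the delta subunit of the eEF1 exchange complex, was nearly missing from old HA libraries, with 0.19 and 0.111 CPM (8 and 3 reads) against 5.66 and 2.56 CPM (438 and 145 reads) in young ones. Its input levels of 24.3, 13.0, 27.7 and 19.0 CPM overlapped. The log2 HA difference was -2.08 ± 0.71, the smallest p of the 48 (adjusted p = 0.297). With young pool 2 left out, the HA difference of Eef1d was -2.53, a fit in which the lone young pool is assumed to vary like the old. Under quantile normalization it was -0.68 (unadjusted p = 0.433, limma). HA/input did not exceed 0.204 in any pool. Its 3′ end overlaps Naprt over 277 bases.

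The release factors Etf1 (eRF1), Gspt1 and Gspt2 (both eRF3) showed overlapping ages in HA. Gspt1 lay at 68.6 and 45.2 CPM in old HA libraries and 31.7 and 128 CPM in young ones, and Etf1 at 61.7, 13.2, 29.1 and 35.4 CPM. All 3 log2 HA differences were between -0.20 and -0.15, and all 3 turned positive (0.01 to 0.06) when libraries were scaled to the median log2 ratio.

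Some factors stayed in the top or bottom 25% by TE in every pool. The rank of a gene's HA/input among the 8537 genes of its pool depends little on the scale of HA against input at high levels. For low genes, such as Eef1d and Eif4ebp2, the added 1 CPM makes it depend on that scale. Eif2a, Eif2ak4, Eif2b1, Eif3i, Eif4a1 and Eif4a-ps4 were in the top 25% in all 4 pools (6 of 48, against 3.39% of all genes). Eef1d and Eif4ebp2 were in the bottom 25% in all 4 pools (2 of 48, against 1.69% of all genes). None of Eif2a, Eif2ak4, Eif3i and Eif4a1 held a CPE in the longest 3′ UTR, and Eif2b1 held 1, the element printed above. At the low end, Eif2d and Eef1d held none either and Eif4ebp2 held 3. The median log2 HA/input of the translation factors was -0.73 with a CPE and -0.81 without, against -0.42 and -0.79 over all genes. This was not tested.

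**Figure D3:**
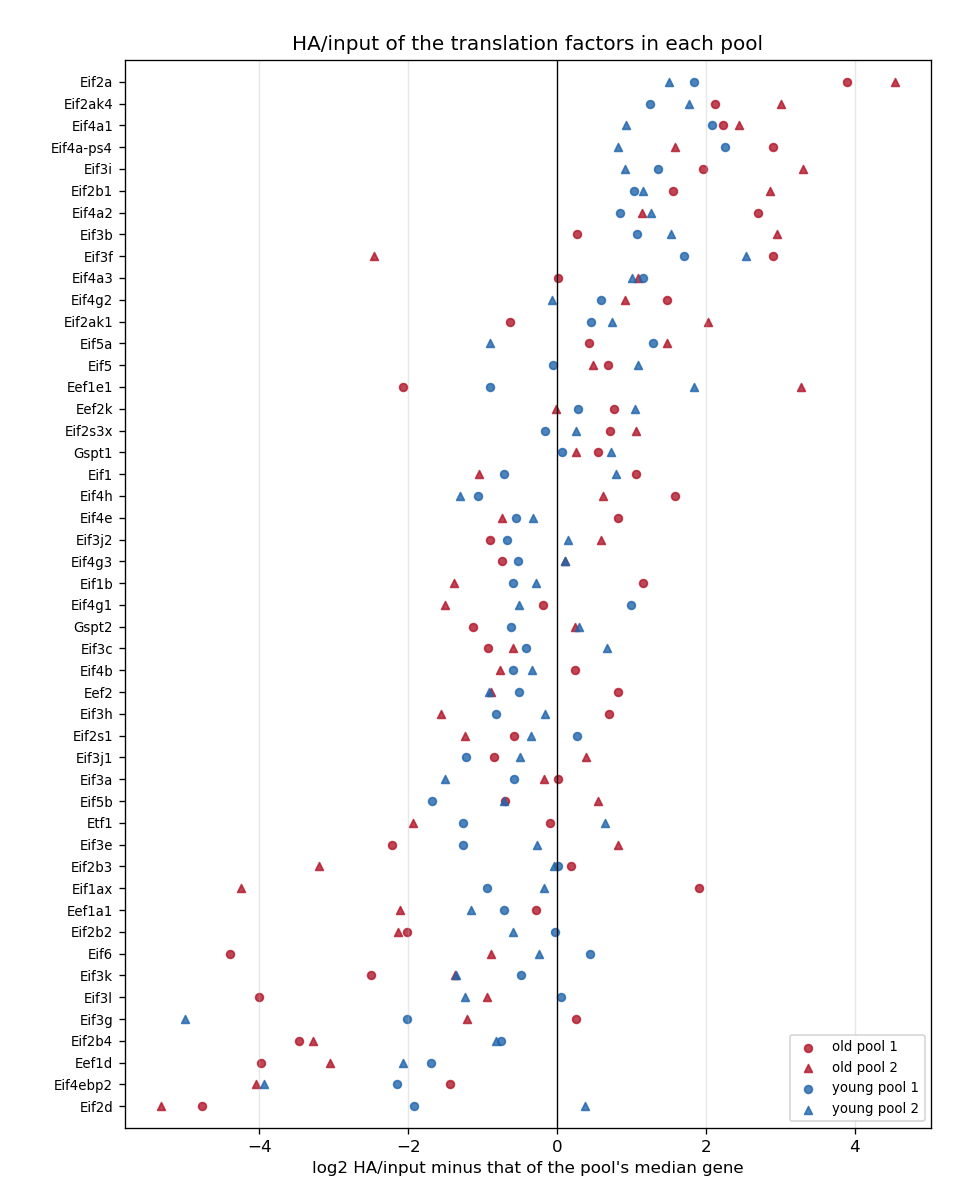
Log2 HA/input of each translation factor minus that of the median gene of the same pool (vertical line at 0), ordered by the mean of the 4 pools. Red marks old pools and blue young pools. Eif2a lies at the top with both old pools to the right of both young pools, and Eif2d, Eif4ebp2 and Eef1d lie at the bottom.

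The HA differences varied with the level of the mRNA. Over all HA genes, the median log2 difference was -0.97 in the lowest 10% by mean HA level and 0.61 in the highest 10%. Eef1d, Eif2b2, Eif2b4 and Eif2d, the 4 with lower HA values, had mean HA levels of 2.13 to 4.76 CPM, and Eif2a, Eif3i and Eif4g2, the 3 with higher values, had means of 151 to 824 CPM. The part of this trend in the differences of single genes was not tested. Among the 48, 3 had at most 3 HA reads in old pool 1 and 4 in old pool 2, against 0 in each young pool.

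**Figure D4:**
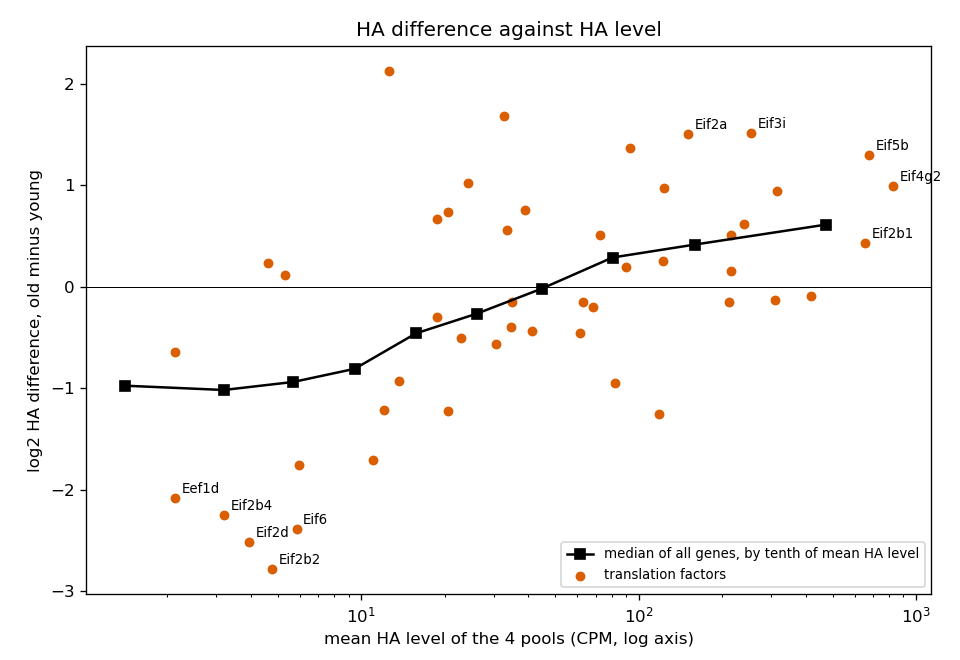
Log2 HA difference, old minus young, against the mean HA level of the 4 pools in CPM on a log axis. Orange points are the 48 translation factors and black squares the medians of all genes in steps of 10% by HA level, which run from -0.97 to 0.61. Of the named points, Eef1d, Eif2b2, Eif2b4, Eif2d and Eif6 lie at low levels and below 0, and Eif2a, Eif2b1, Eif3i, Eif4g2 and Eif5b at high levels and above it.

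The spread between pools of one age limits these comparisons. The median distance between the 2 old pools was 0.95 log2 units in HA for the 48, against 0.68 between the 2 young pools. In input these distances were 0.36 and 0.44. The largest was 6.06, for Eif1ax between the old HA libraries.

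Other genes of the translation pathway were read from a list of 40 cytosolic cofactors and regulators and mitochondrial translation factors. The list included poly(A)-binding proteins, ribosome recycling and rescue factors and eIF2 phosphatase subunits, among others. In HA, 29 were measured and 0 passed an adjusted p of 0.05 by limma. At an unadjusted p under 0.05, 3 were higher in old oocytes (4.28% of all genes) and 3 lower (10.5% of all genes). Those higher were Paip1, Ddx3x and Gigyf2, and those lower were Abce1 and the mitochondrial factors Tsfm and Mtrf1. Paip1, a partner of the poly(A)-binding protein, lay at 725 and 839 CPM in old HA libraries and 328 and 346 CPM in young ones. On recovered reads, edgeR's likelihood ratio test called 1 of the 29 in HA (Mtrf1) and 295 of all genes. DESeq2 called 1 (Eefsec) and 508 of all genes, and edgeR's quasi-likelihood test called 0. In input, 31 were measured, and 0 had an unadjusted p under 0.05 by limma, 1 by each edgeR test and 4 by DESeq2. In TE, 0 of 29 passed by limma or edgeR's quasi-likelihood test. At an unadjusted p under 0.05 by limma, Paip1 and Gigyf2 were higher in old oocytes (2.98% of all genes) and Tsfm lower (3.51%). Tsfm, a mitochondrial elongation factor, lay at 13.8 and 52.3 CPM in old input and 6.79 and 3.5 CPM in young input, against 0.0713 and 0.628 CPM in old HA libraries and 5.60 and 7.47 CPM in young ones. The log2 TE difference of Tsfm was -4.75 ± 1.55 (adjusted p = 0.739, limma). Tsfm was the 1 of the 29 called in TE by edgeR's likelihood ratio test (91 of all genes called) and by DESeq2 (339).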

How the data were processed

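RNA-Seq data of 8 libraries (HA and input of 2 old and 2 young pools) were used, grouped by the titles in the labels. Per the Methods, the authors trimmed single-end reads with Trimmomatic 0.36, aligned them to mouse build GRCm38 with HISAT2, counted reads over whole genes without regard to strand with HTSeq (GENCODE M11), removed low genes and applied TMM. Introns were therefore counted, and levels per kilobase use GENCODE M21 exon length. The deposited signal values are CPM, normalised separately for HA and input by the authors. In each library 100% of values were whole multiples of 1 read (tolerance 0.01), so reads could be recovered for the count tests.

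Old and young were compared with limma (lmFit and eBayes with trend, two-sided) on log2(CPM + 1), with Benjamini-Hochberg adjustment across all genes of a table. Fold changes are on this scale, which understates those of low genes. TE was tested on the difference of the 2 logs, with the trend over mean level. With 2 pools per age an exact permutation test cannot go below p = 0.333, so single values were not tested that way. Pools are separate samples in the labels, and p-values measure the spread between pools. The replicate numbers did not pair the samples. In input, HA and TE, the genes called at an adjusted p of 0.05 from recovered reads were 50, 295 and 91 by the likelihood ratio test of edgeR, 0 in each by its quasi-likelihood test, and 111, 508 and 339 by DESeq2. Pseudocounts of 0.1 and 5 CPM, filters of 10 CPM, other scalings and leaving out each pool were tried as well. The scripts were tested on simulated data.

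The symbol rule for the members and the gene lists were set with earlier results of these data known. Values per pool were given for 20 core factors in both tables (of 23 listed), for the 4 members with the smallest p in each comparison, and for the 3 highest and 3 lowest mean TE. Eif2b3, Eif2b4, Eif2ak1, Eif2s3x, Eif4a-ps4, Eif4g3, Eif4h and the related genes named by count fall outside this rule and were chosen after their values were seen. Fits were run in R 4.3.3 with DESeq2 1.42.0, edgeR 4.0.16 and limma 3.58.1, and tables and plots were made in Python 3.11.15 with matplotlib 3.10.9, pandas 2.3.3 and numpy 2.4.6.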

Additional observations from a re-analysis of the deposited data

How the results depend on the processing

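In every alternative that could be fitted, the differences of Eif2a, Eif2d, Eif3i and Eif5b in TE, Eef1d, Eif2b2, Eif3i and Eif4g2 in HA and Eif2b1, Eif2d, Eif3l and Eif4b in input kept their direction. Filters of 10 CPM left Eef1d, Eif2b2 and Eif2d in HA and TE without a value. The unadjusted p of Eif2d in TE stayed under 0.05 in 11 of 14 alternatives, that of Eif2a in 12 of 16, that of Eef1d in HA in 10 of 14 and that of Eif4g2 in HA in 8 of 16. Calls were few by limma and depended on the tool. In input the count of all genes called was 1 by limma, 0 without trend, 0 by edgeR's quasi-likelihood test, 50 by its likelihood ratio test and 111 by DESeq2. In HA the corresponding counts were 0, 295 by the likelihood ratio test and 508 by DESeq2 (1 translation factor, Eif2b2), and in TE 0, 91 (1 translation factor, Eif2d) and 339 (1, Eif2d).

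The median log2 difference of the translation factors was -0.0603 in input under rescaling to the same sum and 0.00276 under quantile normalization. In HA it was 0.19 under either filter of 10 CPM, -0.75 under rescaling to the same sum, 0.0975 under median ratio scaling, 0.25 by either edgeR test and 0.42 by DESeq2. In TE it was -0.40 under rescaling to the same sum. With each pool left out in turn, genes called ranged from 0 to 2 in input, 0 to 634 in HA (634 without young pool 2, 393 without old pool 1) and 0 to 13 in TE. Translation factors called ranged from 0 to 1 in HA, and their median ranged from -0.0768 to 0.0475 in input, -0.11 to 0.25 in HA and -0.38 to 0.22 in TE. The cause of these shifts was not tested.

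With the replicate number as a block (replicate block), 9 genes were called in HA and 5 in TE, none a translation factor, and 1 in input. Deviations of pools with the same number correlated at 0.03 in input, 0.08 in HA and 0.01 in TE, so the numbers did not pair the samples. A count of 3 reads, the limit set for a level of 0, was worth 0.0388 to 0.111 CPM in HA, and smaller differences were not detectable at this depth.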

Other observations

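Matching symbols in only 1 of the tables were left out of the comparisons above. In the input table alone stood Eef1b2 and Eef1g, subunits of the eEF1 exchange complex, at 4.99 to 31.6 and 0.341 to 3.73 CPM over the 4 pools. Eif2b5, the catalytic subunit of eIF2B, lay at 0.0184 and 3.99 CPM in old input libraries and at 7.72 and 3.15 CPM in young ones. Eif3d, a cap-contacting subunit of eIF3, lay at 8.91, 29.8, 12.1 and 6.15 CPM, and Eif4e2, a cap-binding relative of Eif4e, at 16.8, 2.03, 13 and 7.39 CPM. Eif1ad, Eif2ak2, Eif5a2 and Eif3s6-ps4 were at most 13.8 CPM in any input library. In the HA table alone stood Eif2ak3 (PERK, the eIF2 kinase of the endoplasmic reticulum), at 0 and 0.148 CPM in old libraries (0 and 4 reads) and at 1.43 and 4.94 CPM in young ones (111 and 280 reads), and the pseudogene Eif1-ps1, at 0.111 to 2.03 CPM.

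Among genes with an annotated 3′ UTR in both tables, those with a CPE had a median log2 HA difference, old minus young, of -0.04, and those without had -0.42. The translation factors showed medians of 0.11 with a CPE and -0.29 without. The level of the mRNA was not held constant in this description, and no test was made.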
